A study of Mus musculus with 12 samples.

Results

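A set of 8 genes that move cholesterol into, through and out of liver cells were measured in the livers of mice fed simvastatin: *Lrp1*, *Scarb1* and *Mylip* for uptake, *Abca1* and *Abcg1* for efflux, *Soat2* for esterification, and *Stard4* and *Npc1* for transport inside the cell. They were chosen by name for these roles, with earlier results of these data known, and read from the expression table by Ensembl identifier. All 8 were found among 48526 genes in that table, and all 8 were among the 11968 genes expressed highly enough to be tested. Their level is given as CPM, the reads on a gene for every 1000000 reads counted in that liver, adjusted between livers by TMM (trimmed mean of M values).

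RNA was sequenced from livers of female and male C57BL/6J mice that ate chow without or with simvastatin, a statin that lowers cholesterol synthesis, for 4 weeks. There were 4 groups, chow and statin livers of females and of males, with 3 livers in each, every one labeled as a separate sample. The dose was 0.1 g per kg, which the labels give per body weight and the study's methods per weight of food. The labels state no age and the methods describe young adults, and neither names a transgene or deletion in these mice. The comparisons asked whether these genes differed between statin and chow within each sex, and whether that difference was the same in females and males.

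As background, liver cells take up cholesterol in lipoproteins through cell surface receptors, release it from late endosomes, pass it between membranes on carrier proteins, store it as esters, and return it to lipoproteins through ATP-driven transporters. The transcription factor SREBP2 raises genes of cholesterol synthesis and uptake when sterols are scarce, and the liver X receptors (LXR) raise genes of efflux when sterols are plentiful. Statins lower cholesterol synthesis, and the liver is their main site of action.

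LXR targets include *Abca1*, *Abcg1* and *Mylip*. RefSeq promoter sequence was matched for *Lrp1*, *Mylip* and *Abca1*, and the 250 bases before each start site on build GRCm38.p6 are printed here, 5' to 3' on the gene's strand, because the letters that SREBP2 and LXR are known to bind lie in such stretches. *Scarb1*, *Abcg1* and *Soat2* had no entry, and *Npc1* and *Stard4* are not printed. Capitals mark GC boxes (GGGCGG, or CCGCCC on the other strand), an E-box (CACGTG) and an LXR-type direct repeat (TGACCNNNNNTAACC).
*Lrp1*, chr10:127621149-127621398, minus strand: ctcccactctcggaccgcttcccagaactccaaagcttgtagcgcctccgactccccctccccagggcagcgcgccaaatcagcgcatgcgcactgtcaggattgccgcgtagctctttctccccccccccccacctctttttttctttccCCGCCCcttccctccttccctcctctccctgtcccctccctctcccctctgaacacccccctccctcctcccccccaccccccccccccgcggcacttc
*Mylip*, chr13:45389492-45389741, plus strand: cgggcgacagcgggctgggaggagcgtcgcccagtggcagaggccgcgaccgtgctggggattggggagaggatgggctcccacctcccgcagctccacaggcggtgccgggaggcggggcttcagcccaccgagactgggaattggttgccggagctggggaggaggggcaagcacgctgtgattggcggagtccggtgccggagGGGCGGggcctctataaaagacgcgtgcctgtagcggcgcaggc
*Abca1*, chr4:53159896-53160145, minus strand: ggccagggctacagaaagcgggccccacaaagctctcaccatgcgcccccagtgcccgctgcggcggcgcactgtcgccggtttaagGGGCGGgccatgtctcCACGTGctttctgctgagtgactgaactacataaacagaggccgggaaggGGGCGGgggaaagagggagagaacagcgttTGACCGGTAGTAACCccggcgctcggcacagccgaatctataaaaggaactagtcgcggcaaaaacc

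The *Abca1* window held the LXR-type repeat at bases -67 to -53 from the start site, as TGACCGGTAGTAACC, together with an E-box at -147 and GC boxes at -163 and -97. The repeat was searched for after the *Abca1* sequence had been read. Of 32851 mouse promoter windows (the 250 bases before the start) searched on both strands, 0.05% (15) held the repeat, 6.02% held the E-box and 32.74% held the GC box. The *Lrp1* window held 1 GC box at -99 and the *Mylip* window 1 GC box at -44. None of the 3 windows held the nuclear receptor half-site AGGTCA (14.02% of promoters) or the sterol regulatory element letters TCACNCCAC (1.05%).

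Between 46066381 and 60419223 reads were counted per liver, and the 8 genes were counted at depth: the lowest count of any of them in a liver was 288 (*Abcg1*) and the highest 81894 (*Lrp1*). Hepatocyte markers were abundant in every liver (*Alb*, albumin, 57100 to 127000 CPM). Of 7 bile duct markers 2 were expressed highly enough to be tested, and they ranged from *Krt19*, a bile duct keratin (0.219 to 1.53 CPM), to *Spp1*, which other cells express too (15 to 41.5 CPM), while markers of Kupffer cells, the macrophages of the liver, were present (12 of 12 tested). In bulk tissue, fewer cells of a type and less RNA per cell cannot be told apart. Several livers stood apart from the others of their own group. One direction of variation between livers of the same group held 57.9% of the within-group variance over 7639 genes. Female statin 1 and male statin 3 lay at its low end (scores -0.255 and -0.189) and female statin 2 and male statin 1 at its high end (0.266 and 0.267), with the other 8 livers between -0.108 and 0.123. Genes with longer exons had larger weights in it (rho 0.452 by Spearman over genes, a description since genes are no replicates), and its cause was not tested.

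No difference between statin and chow passed the threshold for any of the 8 genes in either sex by edgeR's quasi-likelihood test with Benjamini-Hochberg adjustment over all genes tested. In females 0 of 8 had an adjusted p under 0.05, against 0.100% of all genes (12 genes), and 0 of 8 had an unadjusted p under 0.05, against 10.5% of all genes. In males the count was 0 of 8 against 0% of all genes adjusted, and 0 of 8 against 1.96% unadjusted. DESeq2, run as another tool, called 270 genes in females and 4 in males, none of them among the 8. The log2 fold change of statin over chow was above 0 for 5 and below 0 for 3 of the 8 genes in females, with a median of 0.102 (0.0134 over all genes). In males it was above 0 for 3 and below 0 for 5, with a median of -0.0768 (0.0036 over all genes). Statin and chow livers did not overlap for 1 of 8 genes in females (*Scarb1*; 12% of all genes, 1437) and for 1 of 8 in males (*Mylip*; 7.95%). The interval of each difference is given with each gene, since a p that misses the threshold does not show equal levels.

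**Figure D1:**
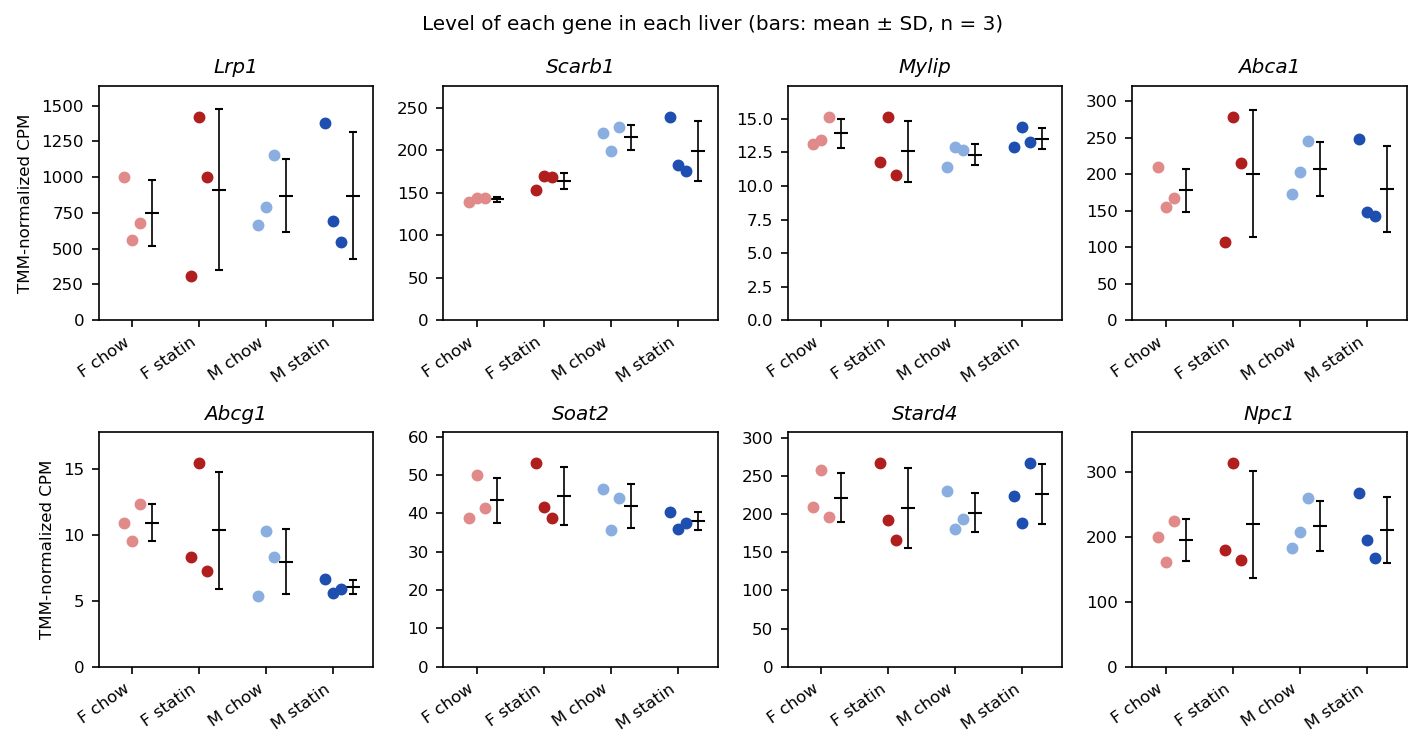
TMM-normalized CPM of each of the 8 genes in each of 12 livers, with 4 groups of 3 livers on the x axis (F, female; M, male); points are livers and bars are the mean and SD. Female statin livers of *Lrp1* spread from 310.45 to 1423 CPM, and the female chow livers of *Scarb1* (139 to 144 CPM) lie below all male livers.

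The sexes were compared within each diet. *Scarb1* was lower in female than in male livers on chow, the only one of the 8 with an adjusted p under 0.05 in any comparison, against 10.4% of all genes in that comparison (1250 genes). On statin, 0 of 8 had an adjusted p under 0.05 between the sexes, against 6.28% of all genes. At an unadjusted p under 0.05 the counts were 1 of 8 on chow (*Scarb1*; 24.9% of all genes) and 1 of 8 on statin (*Abcg1*; 19.4%). Female and male livers did not overlap for 2 of 8 genes on chow (*Scarb1* and *Mylip*; 37.7% of all genes) and for 2 of 8 on statin (*Scarb1* and *Abcg1*; 19.6%). With 8 genes, these counts lie close to what the shares over all genes would give.

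*Lrp1* (ENSMUSG00000040249.15; GRCm38 chr10:127538161-127621148, minus strand, 88 exon blocks) encodes a large endocytic receptor that clears lipoprotein remnants. Female livers had 1004, 563 and 678 CPM when fed chow and 310.45, 1423 and 999.75 CPM when fed simvastatin. The male chow livers had 663, 792 and 1154 CPM and the male statin livers 1376, 692 and 547 CPM. The groups overlapped in both sexes, and the highest and lowest of all 12 livers were both in the female statin group, which spread 4.58-fold. Statin over chow gave a log2 fold change of 0.28 (SE 0.48, 95% interval -0.76 to 1.32, adjusted p = 0.95, edgeR) in females and 0.003 (-1.04 to 1.04, adjusted p = 1.0) in males. Without female statin 2 the value in females was -0.20, and without male statin 1 the value in males was -0.49. *Lrp1* had the widest intervals of the 8 genes, with a within-group SD of 0.73 on the log2 scale.

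*Scarb1* (ENSMUSG00000037936.15; chr5:125277087-125341094, minus strand, 16 exon blocks) encodes the scavenger receptor class B type 1, which takes cholesterol esters from high density lipoprotein. For *Scarb1* the 3 female chow livers read 139, 144 and 144 CPM and the 3 female statin livers 153, 169 and 169 CPM. Among males the values were 219.96, 199 and 227 CPM when fed chow and 239, 183 and 176 CPM when fed simvastatin. All 3 female statin livers were above all 3 female chow livers, whereas the male groups overlapped, and every female liver was below every male liver. The log2 fold change of statin over chow was 0.20 (SE 0.13, 95% interval -0.09 to 0.49, adjusted p = 0.703, edgeR) in females and -0.11 (-0.40 to 0.18, adjusted p = 1.0) in males. The difference of these responses was 0.31 (SE 0.19, -0.10 to 0.72, adjusted p = 0.796). The lower level of *Scarb1* in females on chow was 142 ± 2.82 CPM against 215 ± 14.6 CPM in males (SD, n = 3 livers each). This was a log2 fold change of -0.60 (SE 0.13, 95% interval -0.89 to -0.30, adjusted p = 0.015, edgeR), or a level in females 0.661 times that in males. On statin the difference was -0.28 (-0.58 to 0.01, adjusted p = 0.273), and without male statin 1 it was -0.13. On chow the summed markers of Kupffer cells (785 to 932 CPM in females and 397 to 623 CPM in males) and of stellate cells (569 to 642 and 373 to 411 CPM) were higher in females, the opposite direction to *Scarb1*, and their part in it was not tested. The chow comparison between the sexes uses the same female chow livers as the statin comparison in females. Without male chow 1 the sex difference on chow was -0.58 (adjusted p = 0.0585) and without male chow 3 it was -0.56 (adjusted p = 0.063, both edgeR). It lay between -0.65 and -0.56 over 22 other settings. *Scarb1* also had the smallest within-group SD of the 8 genes (0.14 on the log2 scale, as for *Mylip*).

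*Mylip* (ENSMUSG00000038175.9; chr13:45389742-45412022, plus strand, 8 exon blocks) encodes IDOL, a ubiquitin ligase that marks the LDL receptor for degradation. Female livers had 13.2, 13.4 and 15.2 CPM when fed chow and 11.8, 15.2 and 10.8 CPM when fed simvastatin. The male chow livers had 11.4, 12.9 and 12.7 CPM and the male statin livers 12.9, 14.4 and 13.3 CPM. The female groups overlapped, and the male statin livers were all above the male chow livers by a narrow margin (12.9 against 12.887 CPM). Statin over chow gave a log2 fold change of -0.14 (SE 0.14, 95% interval -0.44 to 0.16, adjusted p = 0.853, edgeR) in females and 0.13 (-0.17 to 0.43, adjusted p = 1.0) in males. The difference of responses was -0.27 (SE 0.20, -0.70 to 0.15, adjusted p = 0.857), and -0.44 without female statin 2. On chow the level was higher in all 3 female livers than in the male livers, by 0.17 on the log2 scale (adjusted p = 0.492, edgeR).

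*Abca1* (ENSMUSG00000015243.4; chr4:53030787-53159895, minus strand, 50 exon blocks) encodes the transporter that loads cholesterol and phospholipid onto apolipoprotein A-I. For *Abca1* the 3 female chow livers read 210.32, 155 and 168 CPM and the 3 female statin livers 107, 279 and 215 CPM. Among males the values were 172, 202 and 246 CPM when fed chow and 248, 148 and 142 CPM when fed simvastatin. The groups overlapped in both sexes, and, as for *Lrp1*, female statin 1 was the lowest and female statin 2 the highest of all 12 livers. The log2 fold change of statin over chow was 0.17 (SE 0.31, 95% interval -0.51 to 0.85, adjusted p = 0.955, edgeR) in females and -0.20 (-0.88 to 0.47, adjusted p = 1.0) in males. The difference of responses was 0.38 (SE 0.44, -0.58 to 1.33, adjusted p = 0.958), and it was 0.05 without female statin 2 and 0.68 without female statin 1 or without male statin 1. Without female statin 2 the value in females was -0.15, and without male statin 1 the value in males was -0.51.

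*Abcg1* (ENSMUSG00000024030.6; chr17:31057675-31117988, plus strand, 16 exon blocks) encodes a transporter that moves cholesterol to high density lipoprotein and is known for its activity in macrophages. Female livers had 10.9, 9.56 and 12.4 CPM when fed chow and 8.33, 15.5 and 7.30 CPM when fed simvastatin. The male chow livers had 5.37, 10.3 and 8.32 CPM and the male statin livers 6.70, 5.64 and 5.91 CPM. The groups overlapped in both sexes, and every female statin liver was above every male statin liver. Statin over chow gave a log2 fold change of -0.08 (SE 0.28, 95% interval -0.68 to 0.53, adjusted p = 0.984, edgeR) in females and -0.40 (-1.01 to 0.22, adjusted p = 1.0) in males. Female statin 2 was the highest of the 12 livers, and without it the value in females was -0.49. Between the sexes *Abcg1* averaged 10.4 ± 4.46 CPM in female and 6.08 ± 0.549 CPM in male statin livers (SD, n = 3 livers each). That was a log2 fold change of 0.77 (SE 0.28, 95% interval 0.15 to 1.39, unadjusted p = 0.0184, adjusted p = 0.146, edgeR), which did not pass the adjusted threshold. Without female statin 2 it was 0.35 (unadjusted p = 0.153, adjusted p = 0.408, edgeR).

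Markers of other cell types differed between the sexes. The summed level of 12 of 12 Kupffer cell markers was 785 to 932 CPM in female chow, 679 to 1050 CPM in female statin, 397 to 623 CPM in male chow and 406 to 499 CPM in male statin livers. The female and male ranges did not overlap, and 7 of the 12 markers on chow and 9 of 12 on statin were higher in females at an adjusted p under 0.05 (edgeR). In statin against chow 0 of 12 passed in either sex. For 10 of 10 markers of stellate cells, which store retinoids, the sum was 569 to 642 CPM in female chow, 481 to 705 CPM in female statin, 373 to 411 CPM in male chow and 353 to 473 CPM in male statin livers, with 3 markers higher in females on chow and 2 on statin at an adjusted p under 0.05. Of 10 markers of sinusoidal endothelium 10 had a log2 fold change above 0 in females over males on each diet. At an adjusted p under 0.05 (edgeR) 1 was higher in females on chow and 0 on statin. The endothelial sum was 537 to 582 CPM in female and 354 to 481 CPM in male chow livers, and on statin the ranges overlapped (425 to 658 and 363 to 534 CPM). The sum of 4 tested markers of 10 for lymphocytes and blood was 161 to 176 CPM in female and 138 to 151 CPM in male chow livers, and on statin the ranges overlapped (143 to 264 and 72.9 to 158 CPM). The sum of 10 hepatocyte markers was 128000 to 172000 CPM in female and 89000 to 104000 CPM in male statin livers, and on chow the ranges overlapped (113000 to 150000 and 83400 to 140000 CPM). The part of these cells in the levels of *Abcg1*, *Mylip* or *Abca1* was not tested.

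*Soat2* (ENSMUSG00000023045.12; chr15:102150526-102163469, plus strand, 15 exon blocks) encodes the acyltransferase that makes cholesterol esters in hepatocytes and enterocytes. For *Soat2* the 3 female chow livers read 38.8, 50.002 and 41.3 CPM and the 3 female statin livers 53.1, 41.7 and 38.6 CPM. Among males the values were 46.3, 35.5 and 44.1 CPM when fed chow and 40.4, 35.8 and 37.4 CPM when fed simvastatin. The groups overlapped in both sexes, and none of the 12 livers lay far from the rest. The log2 fold change of statin over chow was 0.04 (SE 0.15, 95% interval -0.30 to 0.37, adjusted p = 0.987, edgeR) in females and -0.15 (-0.48 to 0.18, adjusted p = 1.0) in males.

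*Stard4* (ENSMUSG00000024378.9; chr18:33199355-33213862, minus strand, 7 exon blocks) encodes a cytosolic carrier of cholesterol and is a known SREBP2 target. Female livers had 209, 258 and 197 CPM when fed chow and 267, 192 and 166 CPM when fed simvastatin. The male chow livers had 230.49, 181 and 194 CPM and the male statin livers 224, 188 and 266 CPM. The groups overlapped in both sexes, and the highest level was in female statin 1, narrowly above male statin 3, and this is the liver in which *Lrp1* and *Abca1* were lowest. Statin over chow gave a log2 fold change of -0.09 (SE 0.20, 95% interval -0.51 to 0.34, adjusted p = 0.97, edgeR) in females and 0.16 (-0.26 to 0.59, adjusted p = 1.0) in males.

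*Npc1* (ENSMUSG00000024413.13; chr18:12189692-12236400, minus strand, 25 exon blocks) encodes the membrane protein through which cholesterol leaves late endosomes and lysosomes. For *Npc1* the 3 female chow livers read 199 CPM, 161 CPM and 224 CPM and the 3 female statin livers 179, 313 and 164 CPM. Among males the values were 183, 207 and 259 CPM when fed chow and 266, 195 and 168 CPM when fed simvastatin. The groups overlapped in both sexes, and female statin 2 was the highest of the 12 livers. The log2 fold change of statin over chow was 0.17 (SE 0.26, 95% interval -0.39 to 0.72, adjusted p = 0.94, edgeR) in females and -0.04 (-0.60 to 0.51, adjusted p = 1.0) in males. Without female statin 2 the value in females was -0.18. *Npc1* shares 511 bases of exon with *Rmc1* on the opposite strand, so reads there could be split unless counting used strand, which is not given in the sources used here.

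**Figure D2:**
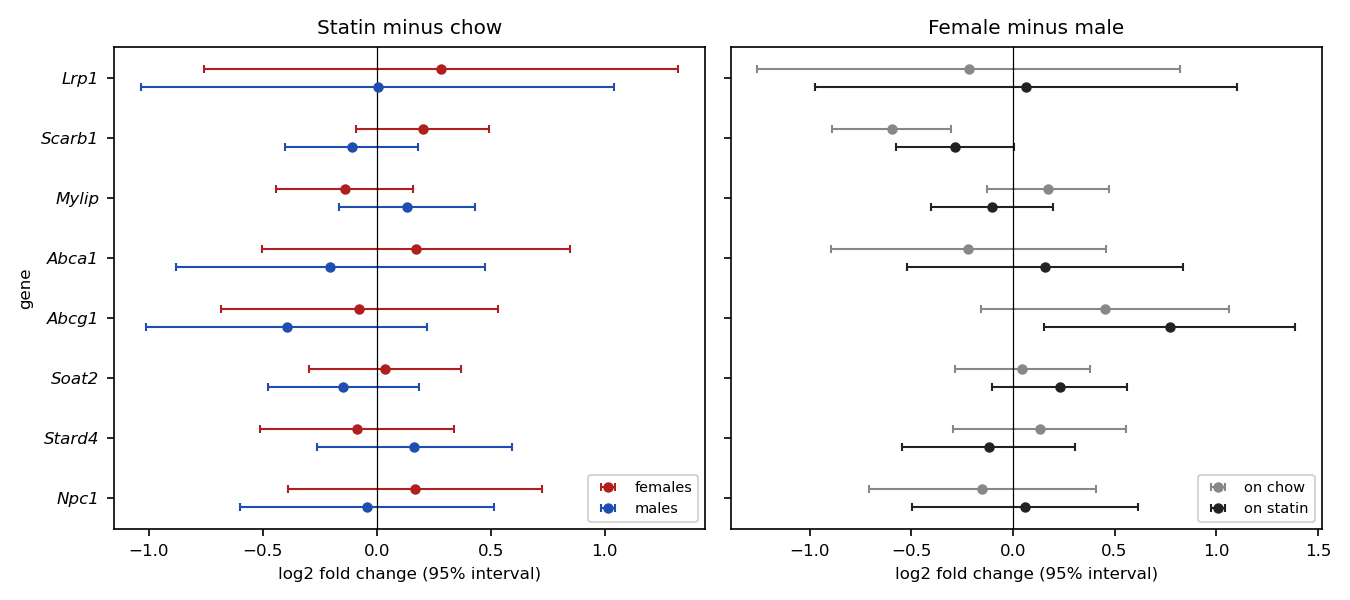
Log2 fold change of each gene with its 95% interval (edgeR), as statin minus chow in females and males (left) and as female minus male on chow and on statin (right). All 16 intervals on the left include 0, and on the right *Scarb1* on chow (-0.89 to -0.30) and *Abcg1* on statin (0.15 to 1.39) exclude it.

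Levels of different genes were compared per kilobase of annotated exon. *Lrp1* averaged 48.0 CPM per kilobase over the 12 livers (17.5 to 80.3) and *Stard4* 38.4 (29.7 to 47.8), and *Lrp1* was above *Stard4* in 8 of 12 livers, so these ranges overlapped. *Scarb1* (21.2), *Soat2* (18.9), *Npc1* (18.5) and *Abca1* (18.4 CPM per kilobase) formed a middle group. Their order was not stable: *Scarb1* exceeded *Soat2* in 8 of 12 livers, *Soat2* exceeded *Npc1* in 5 and *Npc1* exceeded *Abca1* in 5. *Mylip* (4.05 CPM per kilobase) was below *Abca1* in 12 of 12 livers and *Abcg1* (1.21) below *Mylip* in 12 of 12. The length is that of all annotated exons of a gene joined, which is longer than any 1 transcript for some genes.

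The livers of a group differed from each other in a pattern that several of these genes shared. To describe it, the log2(CPM + 1) level in each liver was taken relative to the mean of its own group, which removes the differences of sex and diet. These deviations of *Lrp1* and *Abca1* had a Pearson's r of 0.994 over the 12 livers, the highest of the 28 pairs among the 8 genes. *Npc1* followed both (0.701 with *Lrp1* and 0.711 with *Abca1*). *Mylip* and *Abcg1* formed another pair (0.837), and *Npc1* also followed these (0.703 with *Mylip* and 0.797 with *Abcg1*). *Soat2* and *Stard4* formed one more (0.814), with *Stard4* opposite to *Lrp1* (-0.642) and *Abca1* (-0.588). All points of a correlation share the same 12 libraries, so these values are descriptions.

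**Figure D3:**
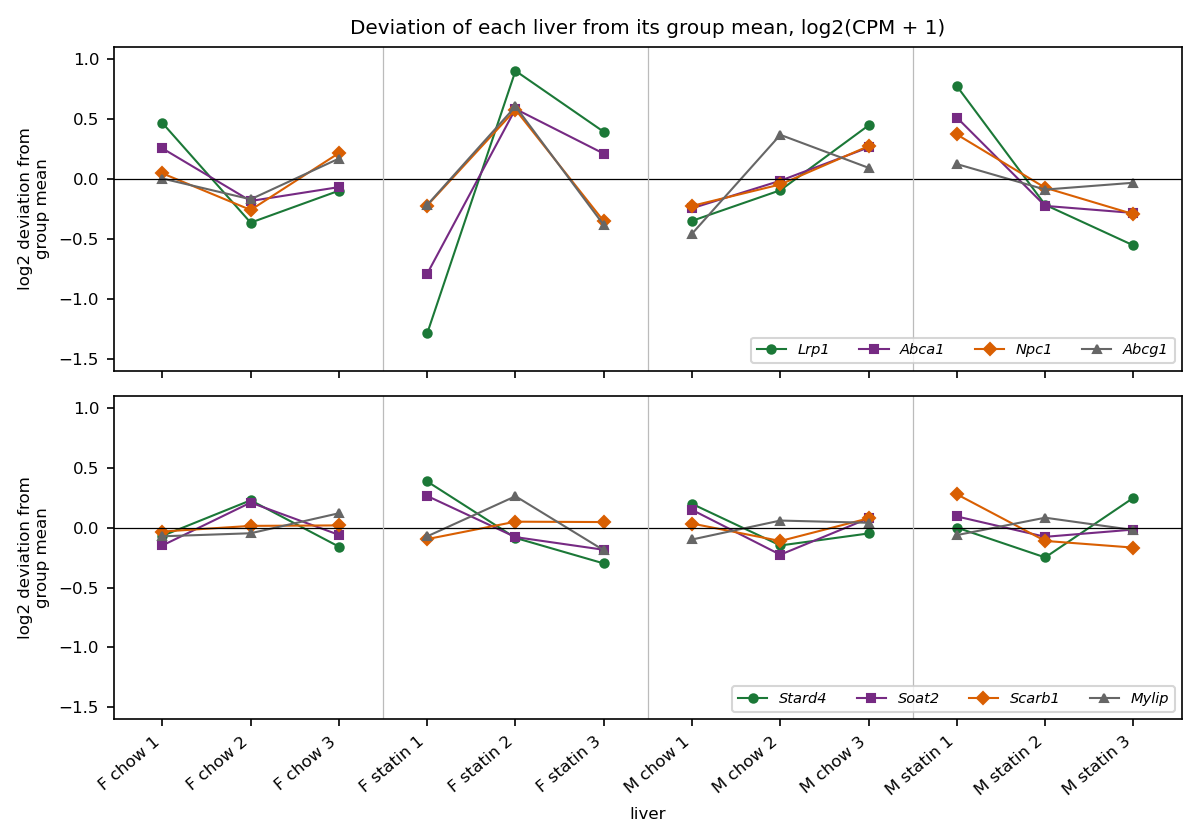
Deviation of each liver from the mean of its group, in log2(CPM + 1), for 4 genes in each panel; lines join the 3 livers of a group only to guide the eye, since livers have no order. *Lrp1* and *Abca1* move together in every group (r = 0.994), lowest in F statin 1 and highest in F statin 2, and *Stard4* is highest in F statin 1.

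The main direction of within-group variation over all genes held 91.8% of the within-group variance of *Abca1*, 90.8% of that of *Lrp1* and 71.2% of that of *Npc1*. It held 50.1% for *Scarb1*, 38.4% for *Abcg1*, 26.0% for *Stard4* (with opposite sign), 13.3% for *Mylip* and 11.5% for *Soat2* (with opposite sign). *Lrp1*, *Npc1* and *Abca1* have the longest joined exons of the 8 (17717, 11317 and 10363 bases), and *Soat2* and *Mylip* the shortest (2213 and 3233 bases). A fit with a length offset per liver lowered the SE of *Lrp1* in statin against chow from 0.478 to 0.371 in males and called none of the 8 genes in statin against chow. Whether this direction reflects RNA quality, library preparation or the animals was not tested.

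The genes whose deviations were most like each member differed between the pairs. For *Lrp1* they were *Fn1*, fibronectin (r = 0.995), and *Abca1*, and for *Abca1* they were *Lrp1* and *Htt*, huntingtin (0.989). For *Npc1* they were *Tbc1d16* (0.987) and *Mia2* (0.979), and for *Scarb1* they were *Zfp598* (0.954) and *Nr5a2* (0.936), a nuclear receptor of liver. For *Mylip* they were *Itgb2*, the leukocyte integrin beta chain (0.907), and *Tmem106c* (0.901), and for *Abcg1* they were *Prex1* (0.962) and *Laptm5* (0.955), both expressed in leukocytes. For *Soat2* they were *Clk3* (0.98) and *Pcyt2* (0.926), and for *Stard4* they were *Pcyt2* (0.966), an enzyme of phosphatidylethanolamine synthesis, and *Insig1* (0.919), which retains the SREBP machinery in the endoplasmic reticulum. All of these are over 12 livers and among genes averaging 10 CPM or more.

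*Stard4* moved with the genes of cholesterol synthesis from liver to liver. Its deviations had an r over 0.5 with 19 of 20 synthesis genes, with a median of 0.779, against 12.8% of all genes averaging 10 CPM or more and a median of -0.102. The highest were *Sc5d* (0.887), *Mvd* (0.878) and *Nsdhl* (0.877). *Soat2* had an r over 0.5 with 9 of the 20 (median 0.472, against 7.19% of all genes and a median of -0.0441). *Lrp1* and *Abca1* lay opposite to the list, with medians of -0.626 and -0.595 (0.207 and 0.206 over all genes).

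Of the lists described, *Lrp1*, *Abca1*, *Npc1* and *Scarb1* had their highest median with the endothelial markers. The median r over 10 markers of sinusoidal endothelium was 0.917 for *Lrp1*, 0.93 for *Abca1*, 0.773 for *Npc1* and 0.643 for *Scarb1*. For each of them 8 of 10 markers were over 0.5. Hepatocyte markers followed *Lrp1* and *Abca1* as well, with 9 of 10 over 0.5 for each gene (medians 0.662 and 0.632). So did 40.2% of all genes averaging 10 CPM or more. *Mylip* and *Abcg1* had medians of 0.655 and 0.626 over 12 Kupffer cell markers, with 9 and 8 of 12 over 0.5. For *Mylip* this was the highest median of the lists described. *Abcg1* had a higher median with the stellate cell markers (0.691, with 7 of 10 over 0.5). It also had 8 of 10 endothelial markers over 0.5 (median 0.583). Over all genes the medians were -0.00752 for *Mylip* (8.77% over 0.5) and 0.0755 for *Abcg1* (25.0% over 0.5). The closest Kupffer cell markers were *Csf1r* (0.91) for *Abcg1* and *C1qc* (0.821) for *Mylip*, while *Clec4f*, which is particular to these cells, had 0.0777 and 0.268. The summed endothelial level was 537 to 582 CPM in female chow, 425 to 658 CPM in female statin, 354 to 481 CPM in male chow and 363 to 534 CPM in male statin livers. The part of cell makeup in these correlations was not tested.

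**Figure D4:**
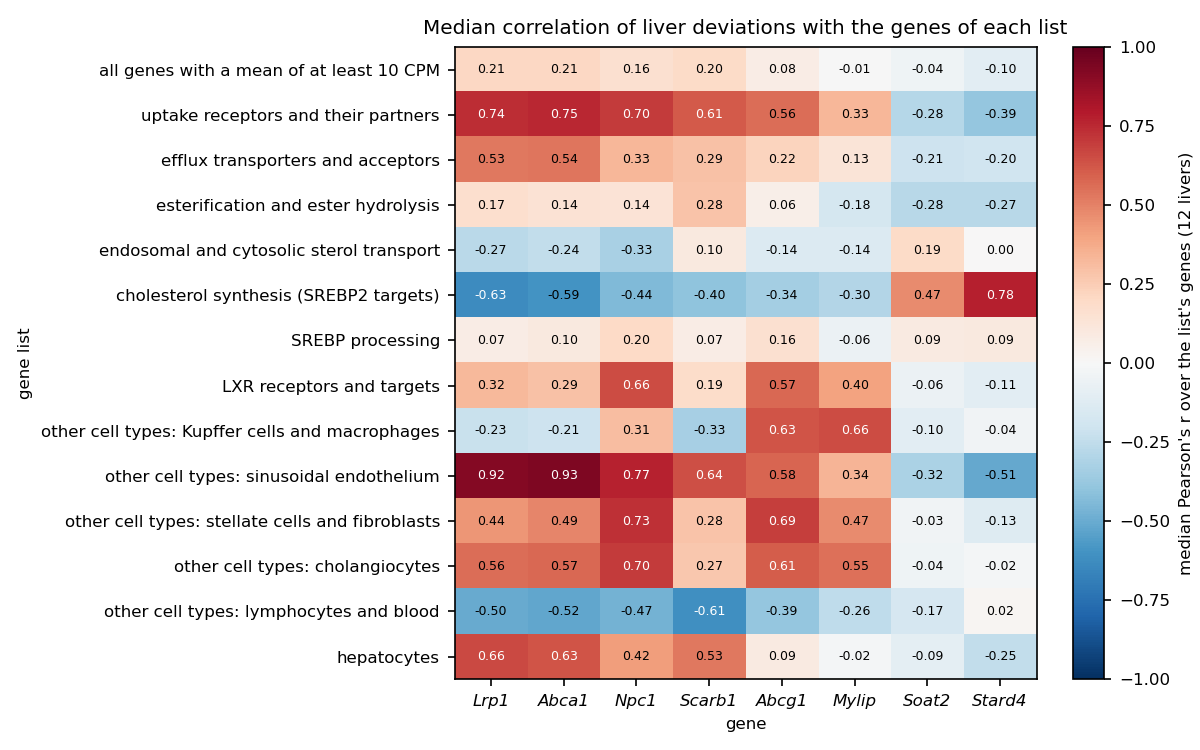
Median Pearson's r, over 12 livers, between the deviations of each gene (columns) and those of the tested genes of each list (rows), with all genes of at least 10 CPM in the top row; red is positive and blue negative. *Stard4* stands at 0.78 with cholesterol synthesis, *Abca1* and *Lrp1* at 0.93 and 0.92 with endothelium, and *Mylip* and *Abcg1* at 0.66 and 0.63 with Kupffer cells. *Abcg1* stands higher, at 0.69, with stellate cells.

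The wider pathway was described from lists of uptake, efflux, esterification with ester hydrolysis, transport, cholesterol synthesis, SREBP processing and LXR genes. These lists include the 8 genes. No gene of these 7 lists had an adjusted p under 0.05 in statin against chow in females or males, or in the difference of responses. Of 18 uptake genes the median log2 fold change in females was 0.0843, and the smallest p-values among falling and among rising genes belonged to *Lsr*, a lipoprotein receptor (269 ± 38.5 CPM on chow and 199 ± 43.0 on statin, a difference of -0.44 on the log2 scale, adjusted p = 0.405, edgeR), and *Lrp4* (0.48, adjusted p = 0.70). In males the median was -0.014, with *Sorl1* at 0.65 and *Pdzk1*, a scaffold that holds the *Scarb1* protein at the membrane, at -0.22 (adjusted p = 1.0 for both, edgeR). Among 18 transport genes no gene had an unadjusted p under 0.05 in either sex, and the medians were 0.0267 and 0.0116. The smallest p-values among rising and among falling transport genes were those of *Lipa* (0.22) and *Gramd1a* (-0.19) in females and in males those of *Osbpl8* (0.18) and *Lipa* (-0.22).

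Efflux genes, and genes of esterification and ester hydrolysis, had higher medians in females than all genes did. Both lists were chosen with earlier results of these data known, so their counts beside the shares over all genes are descriptions. Of 10 tested efflux genes, 4 had an unadjusted p under 0.05 in females, all 4 higher on statin, against 10.5% of all genes. The median log2 fold change of the efflux list was 0.258 (0.0134 over all genes). *Lcat*, which esterifies cholesterol in plasma high density lipoprotein, had 332 ± 33.1 CPM in chow and 508 ± 148 CPM in statin livers (log2 fold change 0.61, adjusted p = 0.257, edgeR), and *Abca7* had -0.11. In males the median was -0.051, and *Apoa1*, the main protein of high density lipoprotein and a hepatocyte marker too, had 8860 ± 782 CPM in chow and 5750 ± 569 CPM in statin livers (log2 fold change -0.62, unadjusted p = 0.00445, adjusted p = 1.0, edgeR), while *Abcg5* had 0.22. Of 10 tested genes of esterification and ester hydrolysis, 4 had an unadjusted p under 0.05 in females, all higher, again against 10.5% of all genes. The median of this list was 0.276. *Ces1d*, a carboxylesterase, had 540.0 ± 157 CPM in chow and 1280 ± 681 CPM in statin livers (log2 fold change 1.24, adjusted p = 0.154, edgeR), and *Mttp* had -0.04. In males the median of this list was -0.197, with *Nceh1* at 0.30 and *Lipa* at -0.22. The difference of responses had an unadjusted p under 0.05 for 5 of the 10, all higher in females, and 0 of 10 passed after adjustment (0% of all genes adjusted and 8.01% unadjusted). Of the 8 genes 0 passed in that difference at either threshold. The summed hepatocyte markers moved the same way as the medians of both lists, from a median of 115000 CPM on chow to 165000 CPM on statin in females and from 104000 to 93000 CPM in males, with overlapping ranges in both sexes. The median log2 fold change over the 10 hepatocyte markers was 0.0337 in females and -0.0306 in males, with 0 of 10 passing after adjustment in either, and their part in the lists was not tested. *Soat2*, an acyltransferase in the list of esterification and ester hydrolysis, had a log2 fold change of 0.04 in females.

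Cholesterol synthesis genes had a median log2 fold change of -0.10 in females and 0.241 in males over 20 genes. *Pmvk*, a kinase of the mevalonate pathway, had -0.72 in females (adjusted p = 0.551, edgeR) and 0.63 in males (adjusted p = 1.0). Of 10 SREBP processing genes, *Insig2* had -0.57 in females, and *Ubxn8* (0.08) and *Srebf1* (-0.29) had the smallest p-values of the rising and falling genes in males. Of 16 LXR genes, *Cyp7a1*, the rate-limiting enzyme of bile acid synthesis, had 55.7 ± 10.3 CPM in chow and 305 ± 273 CPM in statin livers of females (log2 fold change 2.45, adjusted p = 0.0951, edgeR) and 208 ± 43.0 and 131 ± 32.1 CPM in males (-0.66, adjusted p = 1.0). *Nr1h2*, which encodes LXR beta, had -0.34 in females (adjusted p = 0.218). *Mylip*, itself an LXR target, had the smallest p of the rising LXR genes in males.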

How the data were processed

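RNA from 12 mouse livers (4 groups of 3) was sequenced, and the submitters' processing notes name STAR 2.4.1a, HTSeq, edgeR 3.28.1 and GRCm38. The authors deposited a table described as TMM-normalized, whose values are raw counts, for the genes that exceeded 1 CPM in 6 livers or more (checked on the values), and CPM values (each count over the total of its liver) for all genes. Of the CPM values 100% gave whole reads (tolerance 0.01), and 0 differed from the deposited counts. The kit was strand-specific per the labels. The strand setting of counting is not given in the sources used here. Depth is given in the report, and a count of 3 corresponds to 0.0497 to 0.0651 CPM.

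The counts were fitted with edgeR 4.0.16 (R 4.3.3; TMM, quasi-likelihood, common dispersion 0.0380, 12 livers in 1 fit, no covariate), with two-sided tests, Benjamini-Hochberg adjustment over 11968 genes and an adjusted p threshold of 0.05. SEs come from the log2 fold change and the F statistic (its absolute value over the root of F). The study's methods give 3 livers for each sex and diet, so p-values measure the spread between these livers. An exact test of 3 against 3 livers cannot go below p = 0.1, so none was used. The fits were tested on simulated data. The 8 genes and the gene lists were chosen with earlier results of these data known. Other genes were named from each list as any with an adjusted p under 0.05 on statin, otherwise the rising and the falling gene with the smallest p in each sex, plus, for each member, the 2 genes of most correlated deviations and the marker genes of lowest and highest level; a few other correlations and the bile duct markers were named after their values were seen, and some genes under this rule are not reported here. Positions and exon lengths are from GENCODE vM21 on GRCm38, and exon length was found for 99.88% of tested genes. Alternatives used limma 3.58.1 (log2 of CPM plus 1 or 0.1), DESeq2 1.42.0, other scalings and filters (none, or above 5 CPM), own groups alone, a replicate block, a length offset and leaving out each liver. Summaries and figures used Python 3.11.15, numpy 2.4.6, pandas 2.3.3 and matplotlib 3.10.9.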

Additional observations from a re-analysis of the deposited data

How the results depend on the processing

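Of the values of the 8 genes under other settings, no statin difference passed the adjusted threshold. Leaving out male chow 1 or male chow 3 ended the call of *Scarb1* between the sexes on chow, and without any 1 liver its value lay between -0.65 and -0.56. The replicate block left it past the threshold (adjusted p = 0.0381, edgeR). Deviations of same-numbered livers of different groups had a mean r of -0.108 over 18 pairs (-0.746 to 0.676), against 0.0576 for other numbers. Deviations within a group of 3 depend on each other, so these values cannot decide whether the replicate numbers pair the livers.

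Genes called in females on statin (12) became 270 with DESeq2, 148 with no filter on low counts, 0 with the own 2 groups alone, 5 with the replicate block and 0 to 75 with 1 liver left out (75 without female statin 2, 62 without female statin 1). In males (0) DESeq2 called 4, and leaving out a liver called 0. For the difference of responses (0) the counts were 122 with DESeq2, 103 with no filter, 0 with the replicate block and 0 to 14 with 1 liver left out. Between the sexes on chow (1250) they were 1946 with DESeq2, 2151 with the own 2 groups alone, 901 with the replicate block and 635 to 1586 with 1 liver left out. On statin (751) they were 1284 with DESeq2, 500 with a stricter filter, 292 with the own 2 groups alone, 570 with the replicate block and 378 to 743 with 1 liver left out. With library size alone the split of genes higher and lower in females was 565 to 653 on chow (713 to 537 with TMM) and 354 to 327 on statin (524 to 227 with TMM), and on statin the median of all genes shifted to -0.104. With the length offset the split was 758 to 796 on chow and 554 to 375 on statin. The causes of these changes were not tested.

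The sign of some differences that passed no threshold turned. *Lrp1* in males was -0.0731 with limma at pseudocount 1, -0.0733 at pseudocount 0.1, -0.0031 with the replicate block and -0.0351 with the length offset, and *Soat2* between the sexes on chow was -0.0172 with the length offset. Between the sexes on statin *Lrp1* was -0.0402 with library size alone, -0.0785 with limma at pseudocount 1 and -0.0789 at pseudocount 0.1, and *Npc1* was -0.0284 with library size alone. With 1 liver left out, values on statin in females ran from -0.20 to 0.70 for *Lrp1*, -0.15 to 0.48 for *Abca1*, -0.49 to 0.14 for *Abcg1*, -0.10 to 0.16 for *Soat2*, -0.30 to 0.0691 for *Stard4* and -0.18 to 0.36 for *Npc1*. In males they ran from -0.49 to 0.26 for *Lrp1* and -0.25 to 0.11 for *Npc1*. Between the sexes on chow they ran from -0.49 to 0.0409 for *Lrp1*, -0.0741 to 0.12 for *Soat2* and -0.27 to 0.000232 for *Npc1*. Between the sexes on statin they ran from -0.43 to 0.56 for *Lrp1*, -0.17 to 0.46 for *Abca1*, -0.34 to 0.0214 for *Stard4* and -0.30 to 0.27 for *Npc1*, and the difference of responses ran from -0.21 to 0.77 for *Lrp1*, -0.10 to 0.54 for *Abcg1* and -0.15 to 0.42 for *Npc1*. The remaining values kept their sign when 1 liver was left out, but on statin in males they ran from -0.51 to -0.06 for *Abca1*, -0.61 to -0.17 for *Abcg1* and -0.26 to -0.03 for *Scarb1*, and between the sexes on statin from 0.35 to 0.97 for *Abcg1* and -0.37 to -0.13 for *Scarb1*. For statin against chow, *Stard4* in males ran from 0.03 to 0.28, *Soat2* in males from -0.25 to -0.07 and *Mylip* in females from -0.30 to -0.03. The difference of responses then ran from 0.05 to 0.68 for *Abca1*, 0.23 to 0.47 for *Scarb1* and -0.44 to -0.17 for *Mylip*. Each of the 8 genes had at least 288 reads in every liver.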
